A study of Rattus norvegicus with 19 samples.

Results

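Neuropeptide and granin precursors are the proteins from which neurons cut and release their peptide signals. The 10 genes described here are the rows of the expression table with the symbols Vgf, Scg2, Chga, Sst, Npy, Penk, Tac1, Adcyap1, Nts and Gal, and all 10 were found among its 15597 genes. In ventral spinal cord cultures of the rat, the granins Vgf and Scg2 and the galanin precursor Gal fell after 90 min with polyphosphate, while no member rose. Gal was also the single member that rose with medium from astrocytes that carry wild-type human SOD1. The other 7 members passed the test in none of the 4 comparisons.

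Granins and neuropeptide precursors enter the secretory pathway, are sorted into dense-core granules, and are cut there by prohormone convertases and trimmed by carboxypeptidases before release. Unlike classical transmitters, the peptides are not taken up again after release, so the store is refilled by new synthesis, and the messenger RNA of several precursors is known to follow electrical activity and cyclic AMP. In the spinal cord, peptides such as substance P, enkephalin, somatostatin and neuropeptide Y mark sets of interneurons and shape the transmission of sensory signals.

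All cultures came from the ventral spinal cord of wild-type Sprague-Dawley rat embryos at embryonic day 14 (E14) and grew in a medium with horse serum and chick leg extract. The control group (n = 5) had no treatment and received no conditioned medium. The polyP group (n = 5) received long-chain synthetic polyphosphate (polyPL), a chain of linked phosphates, at 100 μM for 90 min. The wtSOD1-ACM group (n = 4) was exposed for 90 min to medium conditioned by mouse spinal cord astrocytes with wild-type human SOD1, and the mutSOD1-ACM group (n = 5) for 90 min to medium conditioned by astrocytes of SOD1G93A transgenic mice. Those astrocytes came from mice at postnatal days 1 to 2 (P1-2), and SOD1 is a gene in which the G93A change causes familial amyotrophic lateral sclerosis. Medium from non-transgenic astrocytes is not among the libraries analysed here, so the comparisons of either medium with control differ in conditioned medium as well as in SOD1. Culture age differs between fields of the labels, at 7 days in vitro (DIV) for the tissue, 4 DIV for the treatment and 7 to 9 DIV for growth. The libraries are counted as independent cultures because the labels say so.

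Levels are in FPKM, a fragment count divided by transcript length and by the library's total, and so can be set side by side between genes. The number of fragments behind them is unknown, and depth relative to control replicate 2 ran from 0.76 to 1.35 over the 19 libraries. Clustered on all tested genes, the libraries fell into 3 classes that cut across the groups. Class A held control replicate 1, polyP replicates 1 and 2 and mutSOD1-ACM replicates 1 and 2. Class B held control replicates 2 and 3, polyP replicate 3, wtSOD1-ACM replicates 1 and 2 and mutSOD1-ACM replicate 3, and class C, also called set 2 here, held the last 2 replicates of each group. Mbp, which encodes a protein of the myelin sheath, stood at 169 to 216 FPKM in class A, 292 to 372 in class B and 6.54 to 9.62 in class C. No class A library belongs to wtSOD1-ACM. The classes come from the same table and are a description. Pan-neuronal markers were present throughout, with all 17 of the list tested and a summed level of 1806 to 3314 FPKM, whereas 4 of the 9 motor neuron markers in the table (Slc5a7, Mnx1, Isl1 and Isl2) stayed under 1 FPKM in every library. In whole cultures, fewer cells of a type and less RNA per cell cannot be told apart.

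All 10 members were above 1 FPKM in every library, and their levels in control spanned from 336 FPKM for Vgf to 3.84 FPKM for Gal. Among the granins, which help to form dense-core granules and are themselves cut into peptides, Vgf stood at 336 ± 38.5 FPKM (SD, n = 5), Scg2 (secretogranin II) at 211 ± 23.4 and Chga (chromogranin A) at 57.3 ± 13.3. Among the peptide precursors, Sst (somatostatin, an inhibitory peptide) stood at 149.6 ± 47.1 FPKM, Npy (neuropeptide Y) at 73.3 ± 23.4, Penk (proenkephalin, the source of enkephalin opioids) at 65.5 ± 12.8 and Tac1 (the source of substance P) at 51.9 ± 19.4. Lower levels were found for Adcyap1, which encodes the adenylate cyclase activating peptide PACAP, at 21.8 ± 4.17 FPKM, for Nts (neurotensin) at 18.2 ± 6.43 and for Gal at 3.84 ± 0.688. In this order only the steps from Vgf to Scg2 and from Nts to Gal showed no overlap between the control ranges of neighbours. Control replicate 1 was the highest control for Sst, Npy, Penk, Chga, Tac1, Adcyap1 and Nts, and control replicate 2 the lowest for the same 7 genes.

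**Figure D1:**
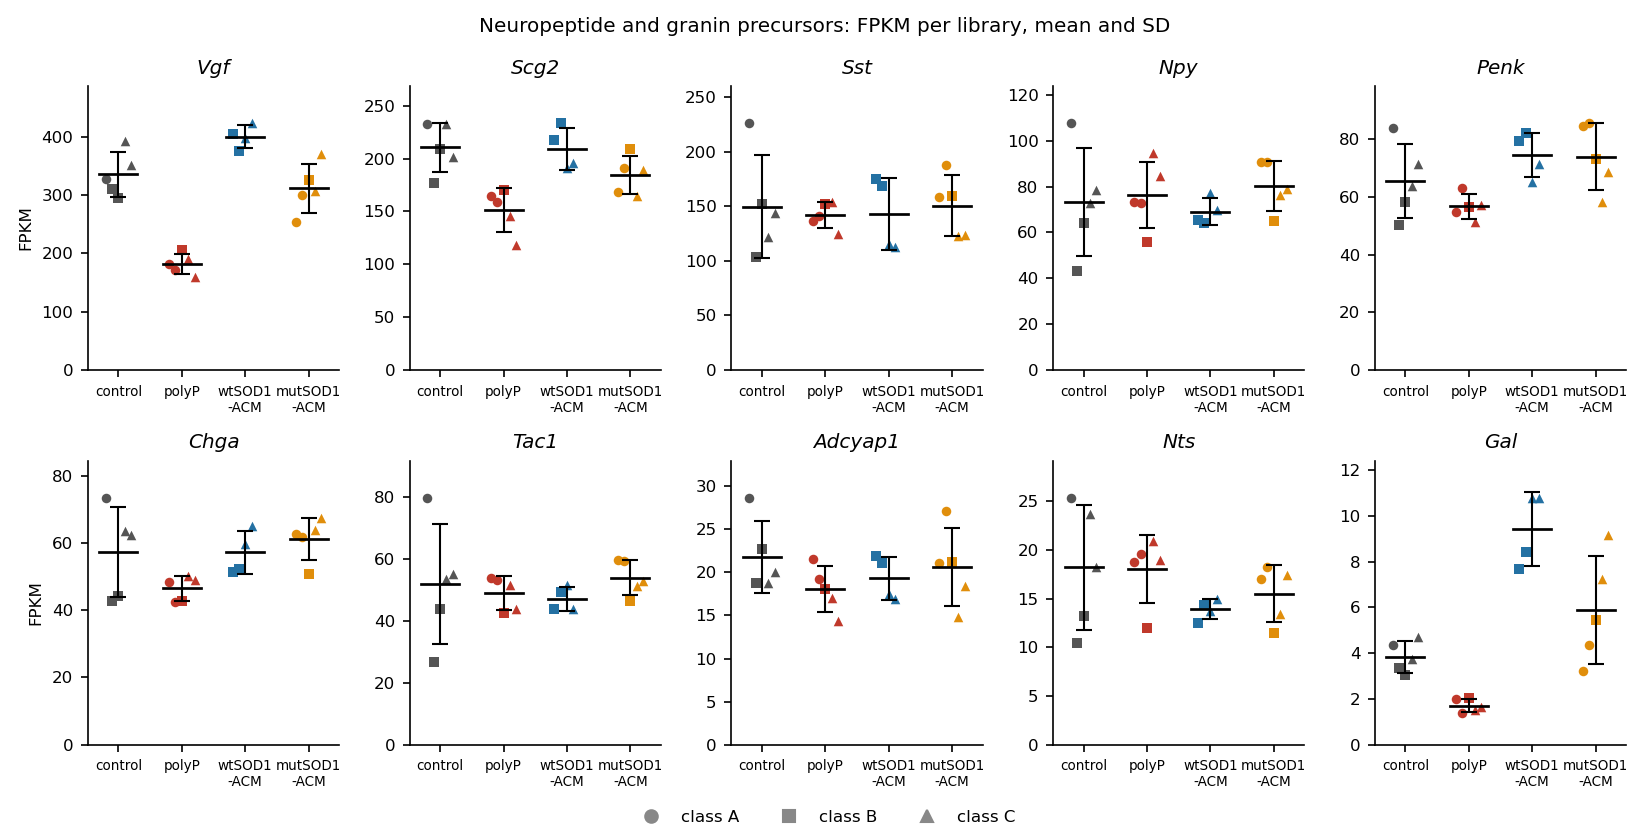
FPKM (vertical axes, linear from 0) of the 10 precursors in each library of the 4 groups; bars give the mean and the SD, and circles, squares and triangles mark classes A, B and C. The polyP points of Vgf, Scg2 and Gal lie below all control points, and the wtSOD1-ACM points of Gal lie above all control points. For the other 7 genes, the groups set against each other in the 4 comparisons overlap.

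Several of these genes are known targets of CREB, a factor that binds the cyclic AMP response element TGACGTCA, and promoter stretches are shown for that reason for the 3 members with the full element and for Gal. The RefSeq promoter table (build GRCr8, windows of 300 bases from 250 bases before the transcription start) held a window for 8 of the 10 members, with Penk and Chga unmatched. The expression values themselves were made on build rn6. TGACGTCA, which reads alike on both strands, was found in 3 of the 8 windows, those of Vgf, Scg2 and Sst, and in 1.83% of all 33469 windows. Its first part, TGACG, which every full element contains, was found on either strand in 6 of the 8 windows (also in Gal, Tac1 and Nts) and in 21.2% of all windows. Capitals mark the match in the stretches of 30 bases below, each on the gene's strand. The lines are the full element of Vgf at chr12:25277092-25277121 (minus strand), of Scg2 at chr9:88256971-88257000 (minus strand) and of Sst at chr11:90461537-90461566 (plus strand), and the TGACG match of Gal at chr1:210084617-210084646 (minus strand).
Vgf: tgaatgaacatTGACGTCAatggggcgggg
Scg2: ggctgagccggTGACGTCAgcgaggaatgc
Sst: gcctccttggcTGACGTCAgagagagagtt
Gal: cgctgagcgggTGACGcggcagctcccacc
Counted from the start used for each RefSeq window, the element began 90 bases before it in Vgf and 123 before it in Scg2. In Sst it began at base 3 from that start on, and the Gal match began 63 bases before the start. These positions hold for that start only, and other starts of the genes were not examined. A match is a description of these letters, and binding was not measured here. Of the 3 members with the full element, Vgf and Scg2 fell with polyP and Sst was not called.

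The first comparison asks what 90 min of polyphosphate did to the precursors. With polyP, 3 of the 10 members fell and 0 rose (limma over all 19 libraries, Benjamini-Hochberg adjusted p under 0.05 over 11887 genes). Over all tested genes, 8.77% were lower and 23% higher by the same rule. The median log2 fold change was -0.22 over the members and 0.04 over all tested genes. All fold changes of the tests are on the scale of log2(FPKM + 1), which understates changes of low genes such as Gal.

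Vgf (identifier 29461) encodes a precursor of several secreted peptides and is the most abundant member. Its level was 328, 312, 295, 393 and 353 FPKM in control replicates 1 to 5 and 182, 172, 205, 191 and 159 FPKM in polyP replicates 1 to 5. Every polyP library lay below every control library, with a gap from 205 to 295 FPKM. The mean fell from 336 ± 38.5 to 182 ± 17.5 FPKM, 0.541 of control (log2 fold change -0.88, SE 0.093, limma adjusted p = 4.26e-05). The ratio of polyP to control was 0.54 in class A, 0.677 in class B and 0.469 in class C.

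Scg2 (identifier 24765) encodes secretogranin II, the source of the peptide secretoneurin. Its control libraries held 233, 177, 209, 233 and 201 FPKM and its polyP libraries 165, 159, 170, 145 and 118 FPKM. The groups did not overlap, though the lowest control library (177) and the highest polyP library (170), both of class B, stood close together. The mean fell from 211 ± 23.4 to 151 ± 20.7 FPKM (log2 fold change -0.48, SE 0.10, limma adjusted p = 0.00169). In the 11 libraries of classes A and B (set 1) alone, the change was -0.32 and missed the threshold (limma adjusted p = 0.0551). The ratio of polyP to control was 0.695 in class A, 0.879 in class B and 0.606 in class C. The log2 fold change in set 1 minus that in set 2 was 0.40, which was not called (limma adjusted p = 0.999).

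Gal (identifier 29141), the precursor of galanin, was the least abundant member. Control libraries held 4.37, 3.35, 3.04, 3.73 and 4.69 FPKM and polyP libraries 1.98, 1.37, 2.05, 1.5 and 1.63 FPKM. All polyP libraries were below all controls. The mean fell from 3.84 ± 0.688 to 1.71 ± 0.298 FPKM, 0.445 of control (log2 fold change -0.83, SE 0.18, limma adjusted p = 0.00229). The fall was present within each class, with ratios of 0.383, 0.642 and 0.372 in classes A, B and C.

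Chga, Adcyap1 and Penk had lower means with polyP but were not called. Chga stood at 46.6 ± 3.72 FPKM against 57.3 ± 13.3 in control (log2 fold change -0.26, SE 0.13, limma adjusted p = 0.125), Adcyap1 at 18.1 ± 2.65 against 21.8 ± 4.17 (-0.25, adjusted p = 0.197) and Penk at 56.7 ± 4.28 against 65.5 ± 12.8 (-0.19, adjusted p = 0.262). The control libraries of these genes spread widely, with Chga at 73.5, 42.7, 44.3, 63.6 and 62.5 FPKM in control replicates 1 to 5 and at 42.3 to 50.3 FPKM with polyP. Without control replicate 2 or control replicate 3, the 2 low libraries of class B, Chga passed the threshold (-0.36 and -0.35, limma adjusted p = 0.0342 and 0.044). With the library class as a term of the model, chosen after seeing the data, all 3 genes passed as lower (Chga -0.33, adjusted p = 0.000861; Adcyap1 -0.30, adjusted p = 0.00373; Penk -0.24, adjusted p = 0.0388), which made 6 of 10 members. Calls over all genes rose in that fit too, to 21.1% lower and 34.7% higher.

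Sst, Npy, Tac1 and Nts were not called. Their log2 fold changes with polyP were -0.03, 0.09, 0.00 and 0.04, with limma adjusted p from 0.718 to 0.999 and SE from 0.18 to 0.20. The means of Sst were 141.7 ± 11.9 FPKM with polyP and 149.6 ± 47.1 in control, and those of Npy 76.3 ± 14.5 and 73.3 ± 23.4. In the 8 libraries of class C alone, Npy was called as higher (0.24, adjusted p = 0.018), and in set 1 its change was 0.00 (adjusted p = 0.994).

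Scaling bears on these comparisons because summed FPKM was 446366 to 479964 in control and 483794 to 515541 with polyP. When every library was scaled to an equal sum, the median of all genes moved by -0.10, and 45.7% of all called genes were higher, against 72.4% as deposited, 56.5% with median-of-ratios scaling and 67.7% with quantile normalization. Vgf, Scg2 and Gal were called as lower under all of these, and Chga was also called with equal sums (-0.38, limma adjusted p = 0.0276).

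**Figure D2:**
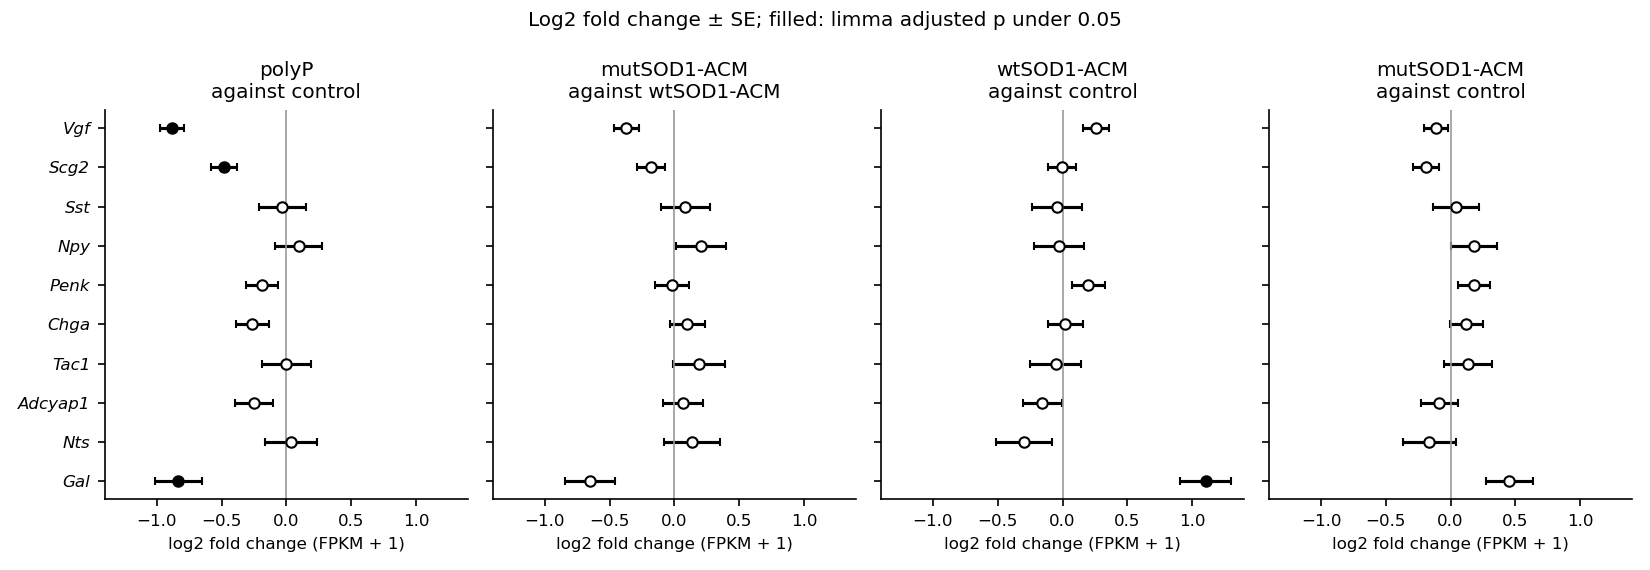
Log2 fold change of FPKM + 1 (horizontal axes) with its SE for each precursor in the 4 comparisons; filled points have a limma adjusted p under 0.05. Filled points are Vgf (-0.88), Scg2 (-0.48) and Gal (-0.83) with polyP and Gal (1.10) with wtSOD1-ACM against control.

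Other genes of the same pathway were counted from lists chosen with earlier results of these data known. Beside the polyP counts of each list stands the share of all tested genes, 8.77% lower and 23% higher. Of 46 other neuropeptide precursors, 21 were high enough to be tested, and 3 fell with polyP while 0 rose. They were Edn1, the source of the vasoconstrictor endothelin (27.0 ± 6.74 to 16.1 ± 1.58 FPKM, -0.68, limma adjusted p = 0.00565), Adm, the source of adrenomedullin (-0.47, adjusted p = 0.0124), and Gnrh1, the source of gonadotropin-releasing hormone (-0.60, adjusted p = 0.0424). Gnrh1 averaged only 1.14 FPKM in control and lost its call with quantile normalization (adjusted p = 0.128). The most abundant of the uncalled were Pnoc, the nociceptin precursor, at 36.3 against 40.8 FPKM, Cck (cholecystokinin) at 29.1 against 27.8 and Nucb2 (the nesfatin precursor) at 28.8 against 28.0. The median of the tested list was -0.05, and its sign flipped to 0.02 with quantile normalization.

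Of 21 other granins, granule proteins and release factors, 19 were tested, 4 fell with polyP and 0 rose. Ptprn, which encodes the granule membrane protein IA-2, held 169.73, 237, 208, 297 and 261 FPKM in control replicates 1 to 5 and 82.2, 79.2, 158, 133 and 132 FPKM in polyP replicates 1 to 5. The groups did not overlap, and the mean fell from 234.5 ± 48.9 to 116.9 ± 34.6 FPKM (-1.03, limma adjusted p = 0.00182; -0.91 with the class as a term). Its relative Ptprn2 also fell (19.9 ± 2.14 to 16.6 ± 1.12 FPKM, -0.24, adjusted p = 0.00782). Unc13a, a priming factor for vesicle release, fell from 31.3 ± 5.74 to 18.8 ± 4.45 FPKM (-0.72, adjusted p = 0.00779). Chgb, the gene of chromogranin B, fell from 111.9 ± 16.7 to 91.9 ± 5.16 FPKM (-0.27, adjusted p = 0.0142). Abundant genes of the list without a call were Pcsk1n, which encodes the convertase inhibitor proSAAS, at 191 against 192 FPKM, Rab3a at 119 against 107 and Snap25 at 114 against 109.

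Of 25 peptide processing enzymes, 24 were tested, 6 fell with polyP and 3 rose. Among those that fell were Ece1, the endothelin-converting enzyme (43.5 ± 4.85 to 31.1 ± 2.82 FPKM, -0.47, limma adjusted p = 0.00017), the prohormone convertase Pcsk2 (19.2 ± 1.22 to 14.5 ± 1.04, -0.38, adjusted p = 0.000346) and the protease Furin (31.4 ± 4.35 to 22.7 ± 2.55, -0.45, adjusted p = 0.000849). Cpe, the carboxypeptidase that trims the cut peptides, named after its values were seen, fell from 354.5 ± 45.4 to 293.8 ± 16.1 FPKM (-0.26, adjusted p = 0.0181). The prolyl peptidase Prep rose from 36.7 ± 1.64 to 42.4 ± 1.2 FPKM (0.21, adjusted p = 0.00161). With equal summed FPKM, 10 enzymes fell and 1 rose, where 14% of all genes were lower and 11.8% higher, and Prep was not called (0.10, adjusted p = 0.0805). With the class as a term, 15 fell and 4 rose, where 21.1% of all genes were lower and 34.7% higher. Ctsb and Ctsl, lysosomal cathepsins, and Prepl were the most abundant without a call, at 217 against 333, 87.8 against 110 and 66.0 against 64.3 FPKM.

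Of 31 neuropeptide receptors, 19 were tested, 3 fell with polyP and 0 rose. Sort1 (sortilin, a sorting receptor that also binds neurotensin) fell from 52.1 ± 4.07 to 40.8 ± 2.01 FPKM (-0.35, limma adjusted p = 0.000257), its relative Sorl1 from 12.8 ± 1.78 to 8.11 ± 1.66 (-0.61, adjusted p = 0.000584) and Tacr1, the receptor of substance P, from 18.7 ± 3.54 to 13.9 ± 2.29 (-0.39, adjusted p = 0.0364). Adcyap1r1, the receptor of PACAP and the most abundant receptor without a call, stood at 59.9 against 60.1 FPKM. Sstr2 and Oprl1, receptors of somatostatin and nociceptin, stood at 7.22 against 7.95 and 6.74 against 7.57 FPKM.

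**Figure D3:**
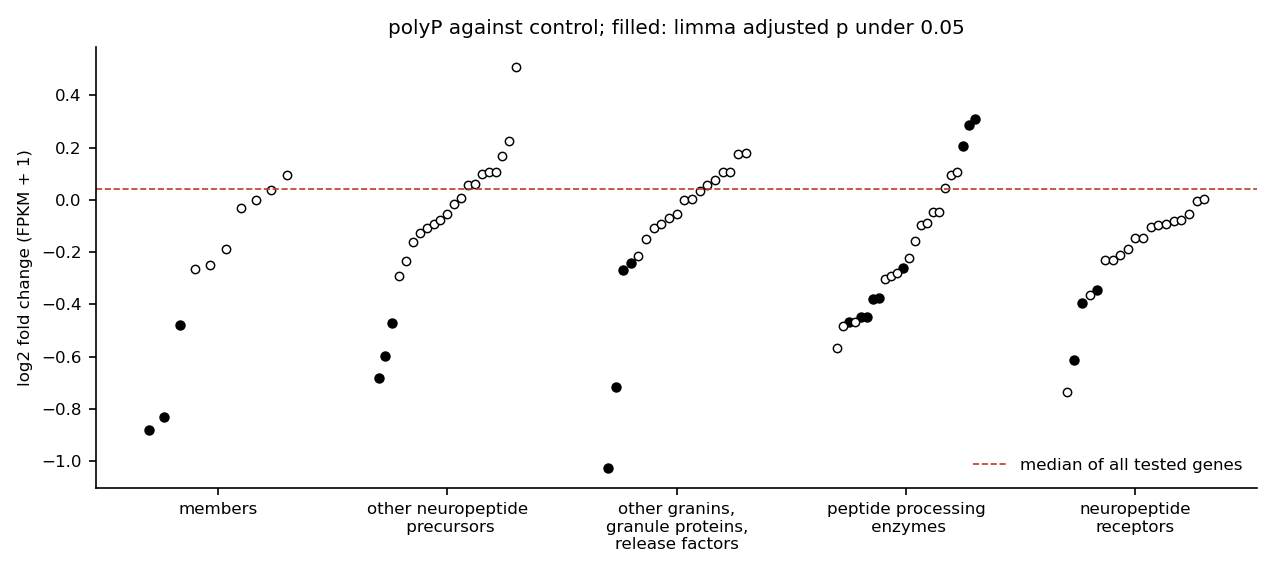
Log2 fold change with polyP (vertical axis) of the 10 precursors and of the tested genes of 4 lists, sorted within each list; filled points have a limma adjusted p under 0.05 and the dashed line is the median of all tested genes (0.04). Called genes of the processing enzymes lie on both sides of 0, and those of the other columns lie below it.

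Genes that follow neuronal activity, most of them transcription factors, were listed because several precursors are known to respond to the same signals. Of 12, 4 fell with polyP and 0 rose, where 8.77% of all tested genes were lower and 23% higher. The summed level of the list was 459.5 to 609 FPKM in control and 276 to 487 with polyP. Egr1 fell from 72.9 to 25.9 FPKM (-1.45), Arc from 45.3 to 21.8 (-0.99), Nr4a1 from 62.5 to 36.6 (-0.76) and Junb from 65.7 to 41.3 (-0.67), with limma adjusted p from 1.9e-05 to 0.0057. Fos, Fosb and Npas4 were not called, at 121 against 123, 48.0 against 51.9 and 24.5 against 26.6 FPKM. Nor were Crem, Nr4a2 and Creb1, at 19.3 against 19.3, 13.5 against 14.0 and 14.2 against 12.4 FPKM. Atf3 and Bdnf, at 13.0 against 15.5 and 8.79 against 9.75 FPKM, were not called either. The part of these genes in the fall of the precursors was not tested.

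Markers of the cell types that a spinal cord culture can hold moved with polyP as follows, where 8.77% of all tested genes were lower and 23% higher. The summed pan-neuronal level was 1806 to 2982 FPKM in control and 2516 to 3314 with polyP, with 1 of 17 markers higher (Gap43) and 0 lower. Of 10 inhibitory interneuron markers 2 were lower (Slc32a1 and Slc6a5), and their sum was 234 to 307 FPKM in control and 211 to 251 with polyP. One each of 4 tested excitatory interneuron (Slc17a6), motor neuron (Slit3), sympathetic or chromaffin (Slc18a2) and endothelial markers (Flt1) was lower. Of 7 tested sensory neuron markers 3 were lower (Ntrk3, Scn9a and Runx1), while Scn10a, Scn11a, Trpv1, P2rx3, Pirt and Isl1 stayed under 1 FPKM in every library, and the sum was 59.3 to 83.8 FPKM in control and 52.0 to 77.9 with polyP. Dbh, Slc18a1, Slc6a2 and Pnmt, which define sympathetic and chromaffin cells, were under 1 FPKM in every library too.

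Of the radial glia list, 4 of 8 markers were higher and 0 lower (Fabp7, Vim, Sox2 and Pax6), with a sum of 2992 to 3474 FPKM in control against 4138 to 4486 with polyP. Astrocyte markers had 2 of 11 higher and 1 lower (sum 474 to 738 against 453 to 582), oligodendrocyte lineage markers 1 of 15 higher and 1 lower (142 to 938 against 236 to 959.5), Schwann markers 3 of 7 lower (380 to 586 against 286 to 480), and fibroblast and mural markers 2 of 10 higher and 2 lower (2024 to 2934 against 2438 to 3182). Of 16 microglia and macrophage markers 0 were called, with a sum of 107 to 840 against 107 to 292 FPKM. The part of these cell types in the fall of Vgf, Scg2 and Gal was not tested. Across the 19 libraries, Vgf, Scg2 and Gal had Pearson correlations of -0.14, -0.03 and -0.03 with the mean log2(FPKM + 1) of the pan-neuronal markers. With the same mean of the inhibitory interneuron markers they were 0.651, 0.355 and 0.715. With the motor neuron markers they were 0.471, 0.058 and 0.486, and with the excitatory interneuron markers 0.307, 0.397 and 0.345. These correlations include the polyP libraries, in which Vgf, Scg2, Gal, Slc32a1 and Slc6a5 were all lower, and so are a description.

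The second comparison asks what the medium of wild-type SOD1 astrocytes did to the precursors. It shares the control libraries with the polyP comparison. With wtSOD1-ACM against control, 1 of the 10 members rose and 0 fell, where 0.564% of all tested genes were higher and 0.0673% lower. The member was Gal, at 7.67, 8.41, 10.79 and 10.77 FPKM in wtSOD1-ACM replicates 1 to 4, against 3.04 to 4.69 FPKM in control. Every wtSOD1-ACM library lay above every control library. The mean rose from 3.84 ± 0.688 to 9.41 ± 1.61 FPKM, 2.45 times control (log2 fold change 1.10, SE 0.195, limma adjusted p = 0.00584). The ratio was 2.52 in class B and 2.56 in class C, and class A held no wtSOD1-ACM library. In set 1 alone the change was 0.99 and missed the threshold (adjusted p = 0.0691).

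Vgf was next in order, at 405, 376, 398 and 424 FPKM in wtSOD1-ACM replicates 1 to 4 and 295 to 393 FPKM in control. Its highest control library lay within the range of the treated ones. The mean was 401 ± 20.0 against 336 ± 38.5 FPKM (0.26, SE 0.099, limma adjusted p = 0.799), which missed the threshold. The other 8 members had log2 fold changes from -0.30 (Nts, 13.9 ± 1.05 against 18.2 ± 6.43 FPKM) to 0.20 (Penk, 74.5 ± 7.70 against 65.5 ± 12.8 FPKM) with adjusted p of 1. The median over the 10 members was -0.02 and over all tested genes 0.00.

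The third comparison sets the medium of mutant SOD1 astrocytes against that of wild-type SOD1 astrocytes and is the one in which both groups received conditioned medium. With mutSOD1-ACM against wtSOD1-ACM, 0 of the 10 members were called and 2 had an unadjusted limma p under 0.05, where 0.463% of all tested genes were lower and 0.00841% higher. Those were Vgf and Gal, both lower. Vgf stood at 254, 301, 327, 306 and 370 FPKM with mutSOD1-ACM, all below the lowest of 376 with wtSOD1-ACM (log2 fold change -0.37, SE 0.099, limma adjusted p = 0.205). The 2 lowest of these mutSOD1-ACM libraries belong to class A, which has no wtSOD1-ACM library. For Vgf the ratio was 0.837 in class B and 0.823 in class C, against 0.778 for the means of all libraries. Over all alternative settings the change of Vgf stayed between -0.44 and -0.29, with limma adjusted p from 0.0588 to 0.635.

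Gal stood at 3.23, 4.36, 5.47, 7.23 and 9.15 FPKM in mutSOD1-ACM replicates 1 to 5 and at 7.67 to 10.79 with wtSOD1-ACM. The groups overlapped through mutSOD1-ACM replicate 5. The means were 5.89 ± 2.35 and 9.41 ± 1.61 FPKM (-0.65, SE 0.195, limma adjusted p = 0.374; adjusted p from 0.0517 to 0.953 over the settings). The 2 lowest mutSOD1-ACM libraries belong to class A, which has no wtSOD1-ACM library, and the ratio was 0.68 in class B and 0.76 in class C. The other members had log2 fold changes from -0.18 (Scg2, 185 ± 18.1 against 209 ± 19.9 FPKM) to 0.21 (Npy, 80.4 ± 10.9 against 69.1 ± 5.92 FPKM), and the median over the 10 members was 0.08 against 0.01 for all tested genes.

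In the fourth comparison, mutSOD1-ACM against control, 0 of the 10 members were called and 1, Gal, had an unadjusted limma p under 0.05, where 0.0168% of all tested genes were higher and 0% lower. It shares its libraries with the comparisons above. Gal was at 5.89 ± 2.35 against 3.84 ± 0.688 FPKM (0.45, SE 0.18, limma adjusted p = 0.966). By class, the ratio to control was 0.868 in class A, 1.71 in class B and 1.95 in class C. In class C alone the change was 0.82 and passed the threshold (adjusted p = 0.049), and in set 1 it was 0.21. The difference between sets was -0.60 (SE 0.24) and was not called (limma adjusted p = 1.00). Over all genes and all 4 comparisons, 0% of 47548 such differences between sets were called. Scg2, Vgf, Nts and Adcyap1 had log2 fold changes of -0.19, -0.11, -0.16 and -0.09, and Npy, Penk, Tac1, Chga and Sst of 0.18, 0.18, 0.14, 0.12 and 0.04, all with an adjusted p of at least 0.966 (limma). The median over the members was 0.08 and over all tested genes 0.00.

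The 4 further pathway lists, and also the 13 cell type lists and the activity-regulated genes, had 0 called genes in each of the 3 comparisons with astrocyte medium (limma, all genes adjusted). In any of these comparisons, no more than 0.564% of all tested genes were higher and no more than 0.463% lower. Ptprn stood at 238.3 FPKM with wtSOD1-ACM and 189 with mutSOD1-ACM (-0.37, adjusted p = 0.998). Pnoc stood at 43.4 and 46.1 FPKM, Cpe at 358 and 360.5, and Adcyap1r1 at 55.3 and 58.1 FPKM.

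Npy, Tac1, Nts and Sst, uncalled throughout, had ranges that differed between the library classes. Npy held 72.7 to 107.7 FPKM in the 5 class A libraries, 43.4 to 65.3 in the 6 of class B and 69.9 to 94.5 in the 8 of class C, so class B did not overlap with the other classes. Nts held 17.0 to 25.3 FPKM in class A and 10.4 to 14.3 in class B, again without overlap, and 13.4 to 23.6 in class C. Tac1 held 53.2 to 79.9, 26.7 to 49.5 and 43.8 to 55.3 FPKM in classes A, B and C. Sst had its highest library, control replicate 1 at 226 FPKM, in class A, and ranged from 103 to 175 in class B and from 113 to 154 in class C. These ranges mix the treatments, and the classes were made from the same table, so no test was run.

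**Figure D4:**
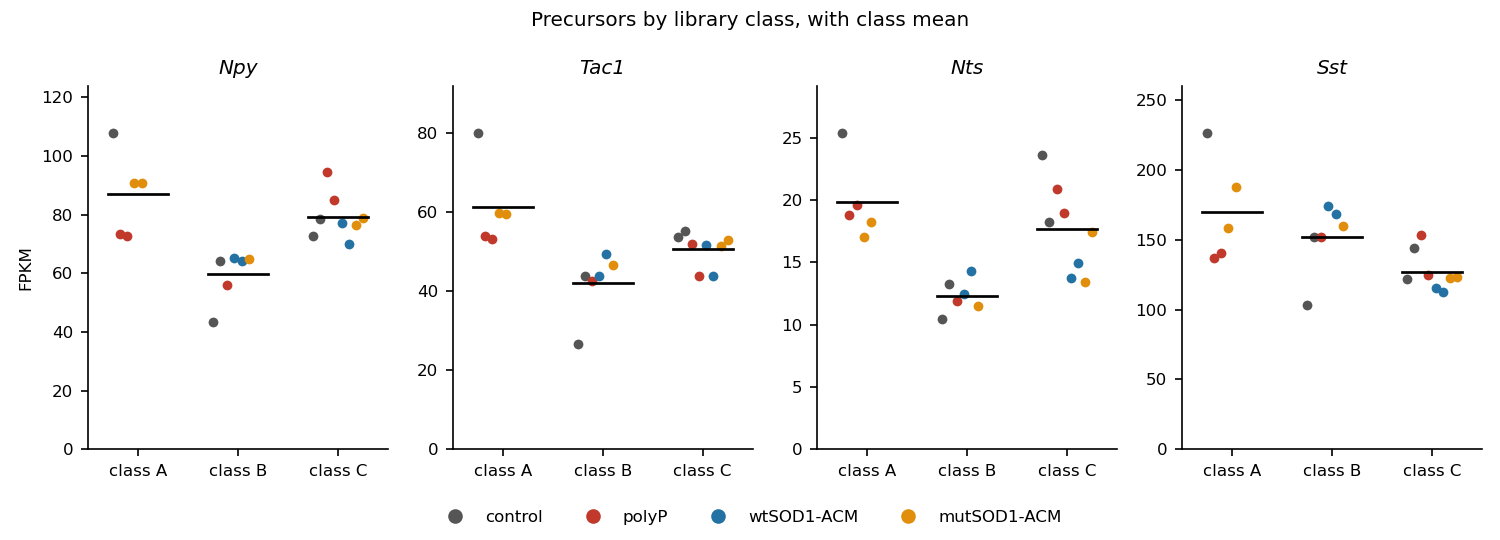
FPKM (vertical axes, linear from 0) of Npy, Tac1, Nts and Sst in the libraries of classes A, B and C; colours mark the 4 groups and lines the class means. All 6 class B libraries of Npy lie at or below 65.3 FPKM and all 13 others at or above 69.9 FPKM.

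Correlations across the 19 libraries are given as description, since the libraries share treatments and classes. Vgf had a Pearson correlation of log2 values of 0.888 with Gal and 0.816 with Scg2, while Npy had 0.874 with Tac1 and 0.783 with Nts. Npy and Tac1 correlated with the mean log2(FPKM + 1) of the pan-neuronal markers at 0.791 and 0.77 and Nts at 0.644. Adcyap1 and Scg2 had 0.797 and 0.752 with the same mean of the activity-regulated genes, and Vgf and Gal 0.442 and 0.257. Between Npy and Vgf, Scg2 or Gal, correlations lay between -0.14 and -0.06.

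The genes most like each called member were sought over the 19 libraries by the correlation of log2 values centred within each set. For Vgf these were Hdac5 (0.976), Slc35e4 (0.971) and Sema7a (0.969), for Gal F3 (0.946), Chsy1 (0.944) and Bcor (0.943), and for Scg2 Nptx1 (0.929), Atp2b3 (0.925) and Ppfia3 (0.923). Nptx1 encodes neuronal pentraxin 1, a secreted synaptic protein, and F3 encodes tissue factor, the starter of blood clotting.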

How the data were processed

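RNA was poly(A)-enriched with a TruSeq protocol from rat ventral spinal cord cultures, per the labels' protocols, and sequenced in 19 libraries. The authors deposited 1 table of FPKM per gene and library (per the file headers). HISAT was the aligner and rn6 the genome build, per the submitters' processing notes. Its version, the tool that made the FPKM, the annotation and any filter are not stated there. No fragment totals are given. From genes with few fragments, relative depth was estimated with 29 genes, and on 89 other genes 94.0% of 503 values lay within 0.1 of whole multiples of the smallest step, but the totals themselves remain unknown. The labels give 4 to 5 independent cultures per condition, and this was not tested. In the fit by group alone, p-values set group differences against the spread between libraries of a group, which includes the differences between classes.

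Genes with at least 1 FPKM in at least 4 libraries were tested (11887) in 1 linear model of all 4 groups on log2(FPKM + 1), with limma 3.58.1 and statmod 1.5.0 in R 4.3.3, using trend and robust moderation. P-values were two-sided and Benjamini-Hochberg adjusted over all tested genes, with calls at an adjusted p under 0.05. The procedure was tested on simulated data, in which each value was drawn independently. Those data hold no library classes, so the test cannot show how the classes affect the calls. Classes came from average linkage on 1 minus the Pearson correlation (scipy 1.17.1). Alternatives changed the pseudocount, the filter, the scaling, the libraries and terms in the fit and the moderation, and left out each library in turn. The library class as a term was added after seeing the data.

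The members, the pathway lists and the marker lists were chosen with earlier results of these data known. Of each pathway list, every tested gene was counted. Named were at most 4 called genes with the smallest p and at most 3 uncalled genes with the highest mean FPKM per list and comparison, and for each called member the 3 genes most correlated with it. Promoter sequences come from RefSeq (GRCr8) and were matched by symbol.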

Additional observations from a re-analysis of the deposited data

Results flagged for a closer look

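In 40 groups of libraries (10 members in 4 groups), 1 held a library far from the rest. Nts in polyP replicate 3 stood at 11.93 FPKM, while the other polyP libraries held 18.8 to 20.9 FPKM. This is the single class B library of the polyP group, and the other class B libraries held 10.4 to 14.3 FPKM of Nts. The gap was compared with Dixon's limit, which chance alone passes in about 1 in 20 groups.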

How the results depend on the processing

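Apart from leaving out libraries, 514 of 560 log2 fold changes of the members kept their direction and their side of the threshold. Of the rest, 2 lost a call, 12 gained one and 32 reversed, the reversals in 19 results that were not called. With polyP, 5 members were called with the library set as a term, 6 with the class as a term and 7 in set 2 only (6 lower and 1 higher). Calls over all genes rose too, from 8.77% lower and 23% higher to 19.4% and 32.7% with the set term, 21.1% and 34.7% with the class term and 18.6% and 29% in set 2 only, and fell to 5.59% and 15.7% in set 1 only. With wtSOD1-ACM against control 0 members were called in set 1 only, where 0.403% of all tested genes were higher and 0.0257% lower. With mutSOD1-ACM against control 1 was called in set 2 only, where 0.0259% of all tested genes were higher and 0.00864% lower. The fits of 1 set hold fewer libraries, 11 in set 1 and 8 in set 2. The cause of these differences was not tested.

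The reversed values were as follows. With polyP, Sst was 0.0622 in set 2 only. Npy was -0.0181 with equal summed FPKM, -0.00351 in set 1 only and -0.0128 with the class term. Tac1 was 0.00121 and 0.000465 with pseudocounts of 0.1 and 0.5 and 0.123 in set 1 only. Nts was -0.0228 with median-of-ratios scaling, -0.0716 with equal sums, -0.0581 in set 2 only and -0.0953 with the class term. With mutSOD1-ACM against wtSOD1-ACM, Adcyap1 was -0.0518 in set 2 only, Sst was -0.026 and Penk 0.00214 in set 1 only, and with the class term Adcyap1 was -0.053, Sst -0.00876, Tac1 -0.0101, Chga -0.00202 and Nts -0.0798. With wtSOD1-ACM against control, Sst was 0.166, Tac1 0.0322 and Scg2 0.136 in set 1 only, Scg2 was 0.00735 with the set term, Chga -0.0132 in set 2 only, and with the class term Sst was 0.015, Npy 0.0386, Tac1 0.0316 and Scg2 0.00869. With mutSOD1-ACM against control, Sst was -0.106, Tac1 -0.0607 and Penk -0.0917 in set 2 only, and Nts was 0.00475 in set 1 only. The cause was not tested.

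Leaving out 1 library at a time, 719 of 760 values were unchanged in direction and call, 0 lost a call, 2 gained one (Chga with polyP, without control replicate 2 or 3) and 39 reversed, in 15 uncalled results. With polyP these ranged from -0.0768 to 0.247 for Npy, -0.133 to 0.17 for Nts, -0.151 to 0.131 for Sst and -0.213 to 0.174 for Tac1. With mutSOD1-ACM against wtSOD1-ACM they ranged from -0.0355 to 0.171 for Adcyap1, -0.0785 to 0.0637 for Penk and -0.0183 to 0.191 for Sst. With wtSOD1-ACM against control they ranged from -0.0737 to 0.119 for Chga, -0.199 to 0.124 for Npy, -0.0665 to 0.0365 for Scg2, -0.164 to 0.118 for Sst and -0.266 to 0.121 for Tac1, and with mutSOD1-ACM against control from -0.191 to 0.0163 for Adcyap1, -0.0784 to 0.203 for Sst and -0.0768 to 0.31 for Tac1. Members called ranged from 3 to 4 with polyP.

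Same-numbered libraries of the groups deviated together in many pairs but not in all. PolyP and control correlated at 0.635, 0.0681, 0.508, 0.662 and 0.688 in replicates 1 to 5, and mutSOD1-ACM and control at 0.674, 0.0781, 0.708, 0.791 and 0.702. In replicates 1 to 4, wtSOD1-ACM correlated with control at 0.267, 0.574, -0.687 and 0.762, and with mutSOD1-ACM at 0.521, 0.444, -0.725 and 0.73. The negative values set wtSOD1-ACM replicate 3, of class C, beside libraries of class B. The labels do not say that the numbers pair cultures, and they are not taken to pair them here. With a replicate block, 4 members were called with polyP, adding Chga (-0.265, limma adjusted p = 0.0393), 1 with wtSOD1-ACM against control and 0 in the other comparisons. Over all genes the block gave 3592 higher and 2138 lower calls with polyP, against 2736 and 1043 without it. A library correlated best with its own number in 3 of 5, 2 of 5, 1 of 4 and 3 of 5 cases, for polyP, mutSOD1-ACM against wtSOD1-ACM, wtSOD1-ACM and mutSOD1-ACM against control.

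Over all genes, calls higher and lower with mutSOD1-ACM against wtSOD1-ACM were 1 and 55, against 7 and 92 with the set term, 13 and 106 with the class term and 11 and 85 with the block. With wtSOD1-ACM against control they were 67 and 8, against 126 and 17, 179 and 60, and 106 and 13 under the same terms, 32 and 1 when only the compared groups were fitted, and 47 and 3 in set 1 only. With mutSOD1-ACM against control they were at most 3 and 2 under these settings. The number of fragments behind each FPKM is unknown, which limits what can be said of low genes such as Gal.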
